A study of Brassica rapa with 8 samples.

Results

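The 4 homologues of FLOWERING LOCUS C (FLC) and the 2 homologues of FRIGIDA (FRI) of *Brassica rapa* were followed over all samples of a tissue atlas. They were chosen by identifier, as Bra009055, Bra028599, Bra006051 and Bra022771 for FLC and Bra029192 and Bra035723 for FRI, and all 6 were found among the 38200 gene models of the deposited table. The table pairs no identifier with a gene name, and no sequence was used here, so the assignment to FLC and FRI was taken as given. RNA came from the inbred Chinese cabbage accession Chiifu-401-42, and the labels list no transgene or treatment. Root, stem and leaf were taken from plants of 7 weeks, flowers from blooming plants without the floral shoot, and siliques at 15 days after pollination, from a greenhouse at 15 to 25°C per the labels. The study's methods give a single greenhouse temperature, which lies within that range. Callus was grown in tissue culture at 25°C. Root and leaf have 2 samples each, taken per the study's methods from different batches of plants, and stem, flower, silique and callus have 1 sample each. The labels do not say whether any plant had been exposed to cold. Tissue labels were not checked against marker genes, because only 1 identifier of the table could be paired with a name.

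FLC encodes a MADS-box transcription factor that represses flowering. In *Arabidopsis thaliana* it acts on the genes of the floral integrators, and prolonged cold (vernalization) silences it through Polycomb proteins. FRI encodes a coiled-coil protein that raises FLC transcription in the same species and is a main source of natural variation in its flowering time. The *Brassica* lineage underwent a whole genome triplication, which left several copies of many genes, FLC among them.

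Levels are given as FPKM, mapped fragments scaled to the length of the gene model and to the size of the library, each followed by the bounds of its deposited 95% confidence interval. That interval reflects how many fragments were counted, and plant-to-plant variation is not in it. Fragment numbers were worked back from its width, and for these genes 45 of the 46 values above 0 gave a whole number (tolerance 0.05 fragments). The exception was Bra028599 in callus, at 234.5 fragments. Among the values of all genes above 0 and under 200 fragments, 91.0% were whole. Over the genes of the table, the samples held from 7.93e+06 such fragments (silique) to 1.64e+07 (root 1). The order of the samples by this depth is not that of the mapped reads listed in the study, for root and leaf the reverse, so the table may stem from another run or its sample numbers may be exchanged. Samples are numbered here as in the table. A gene was called expressed, by the study's rule, where the lower bound lay above 0, which needs more than 4 fragments. In callus a single gene held 17.3% of the summed FPKM, and in leaf 2 it held 6.44%, which lowers the FPKM of every other gene there.

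Of the 4 FLC homologues, 3 reached levels above 10 FPKM in at least 1 sample and differed widely between tissues, whereas the FRI homologues stayed between 5.06 and 10.5 FPKM. All 4 FLC copies were below 1 FPKM in flower. Bra006051 was listed at 0 in both root samples, where Bra028599 was at 31.8 and 26.2 FPKM, and Bra022771 exceeded 2 FPKM only in stem. The samples are bulk tissue, so fewer expressing cells and less RNA per cell cannot be told apart. Expression in all 8 samples was seen for 3 of the 6 genes, Bra009055 and both FRI homologues, against 51.1% of all genes.

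**Figure D1:**
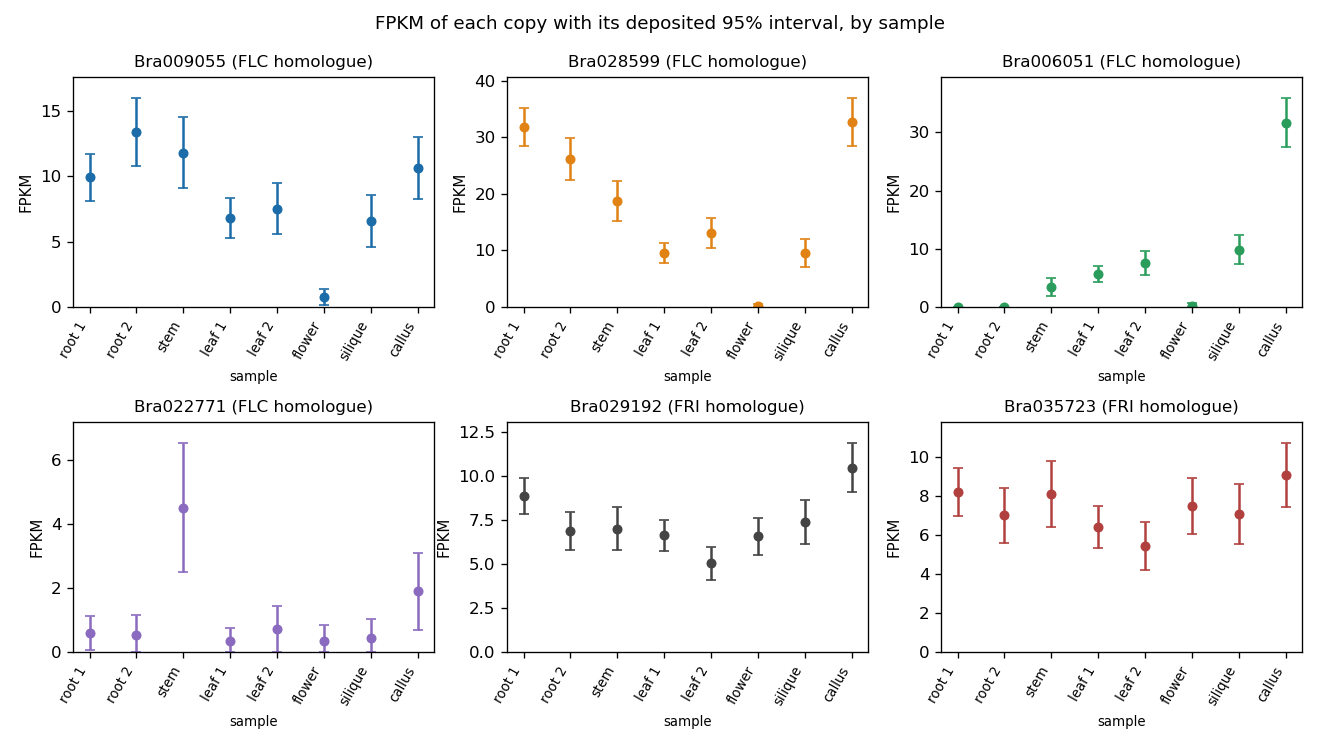
FPKM (y axis, starting at 0, scaled per gene) of the 6 homologues in the 8 samples (x axis), with bars for the deposited 95% confidence interval. Flower is the lowest sample of Bra009055 and Bra028599, at 0.744 and 0.260 FPKM, and the FRI homologues stay between 5.06 and 10.5 FPKM.

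Bra009055 lies on Scaffold000008 from 2251973 to 2256441, a span of 4469 bases. Its level in root was 9.91 FPKM (8.10 to 11.7) in sample 1 and 13.4 (10.8 to 16.0) in sample 2, and it was 11.8 (9.07 to 14.5) in stem. In leaf it was 6.79 (5.29 to 8.29) and 7.50 (5.57 to 9.44) FPKM. It was 6.57 (4.59 to 8.55) in silique, 10.6 (8.23 to 13.0) in callus and 0.744 (0.136 to 1.35) in flower, from 6 fragments. Ordered by level, each of the upper 7 samples had an interval that overlapped that of its neighbour, from root 2 down to silique, and flower stood below them all. Samples further apart in this order did separate: the root 2 interval lay above those of both leaf samples and silique. The stem interval lay above those of leaf 1 and silique. The mean was 11.6 ± 2.45 FPKM (SD, n = 2) in root and 7.15 ± 0.504 (SD, n = 2) in leaf.

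Bra028599 lies on Scaffold000062 from 1242830 to 1246425, a span of 3596 bases, and was the FLC homologue with the highest FPKM in 6 of the 8 samples. Its level in root was 31.8 FPKM (28.4 to 35.1) and 26.2 (22.5 to 29.9), with a mean of 29.0 ± 3.97 (SD, n = 2). Callus, at 32.6 (28.4 to 36.9), overlapped root 1, and stem was lower at 18.7 (15.2 to 22.2). In leaf it was 9.57 (7.75 to 11.4) and 13.1 (10.5 to 15.8) FPKM, a mean of 11.4 ± 2.52 (SD, n = 2), and in silique 9.57 (7.12 to 12.0). Silique thus overlapped both leaf samples, and leaf 2 overlapped stem. In flower it was 0.260 FPKM (0 to 0.629), which rests on 2 fragments and does not meet the rule for expression, so it was called expressed in 7 samples.

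Bra006051 lies on Scaffold000005 from 1764827 to 1767934, a span of 3108 bases. It was highest in callus, at 31.7 FPKM (27.5 to 35.9) from 229 fragments. Silique had 9.84 (7.36 to 12.3), the leaf samples 5.71 (4.31 to 7.12) and 7.58 (5.59 to 9.58), and stem 3.45 (1.95 to 4.96). The callus interval lay above that of every other sample, as for 9.76% of the genes expressed in callus; none of the other 5 homologues had this. Flower, at 0.259 (0 to 0.626), rests on 2 fragments, and both root samples are listed at 0. An exact 0 can also be a failed estimate. Where it is a count of 0, the limit of 3 fragments corresponds to 0.259 FPKM in root 1, the sample with most implied fragments, and to 0.388 FPKM in root 2. Of the 20320 genes expressed in stem, both leaf samples, silique and callus, 65 (0.320%) are listed at 0 in both root samples, and Bra006051 is among them. These are the 5 samples in which Bra006051 was expressed, so the class follows its own profile and the share is a description only.

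Bra022771, on Scaffold000039 from 163007 to 168011, had the lowest levels of the family. It was 4.52 FPKM (2.50 to 6.54) in stem, from 20 fragments, and 1.90 (0.700 to 3.11) in callus, from 10. These 2 intervals overlapped. In the other 6 samples it lay between 0.356 FPKM in flower and 0.719 in leaf 2, on 2 to 5 fragments, and of these only root 1, at 0.594 (0.0627 to 1.12), met the rule for expression. Differences among those 6 samples were not detectable at this depth. Its span of 5005 bases was the longest of the 4, but the fragments per FPKM imply an effective length 0.696 times that of Bra009055, against 0.952 for Bra028599 and 0.957 for Bra006051.

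Flower stood apart for the sum of the FLC homologues, though not for each copy. Their summed FPKM was 1.62 in flower, from 12 fragments, and ran from 22.4 in leaf 1 to 76.9 in callus in the other samples. Both homologues that were expressed in the other 7 samples, Bra009055 and Bra028599, had a flower interval below that of each of those samples. This was so for 3.98% of the 19776 genes expressed in those 7. Bra006051 is listed at 0 in root, below its flower level, and the flower interval of Bra022771 overlapped that of every other sample but stem. The upper quartile of FPKM over all genes was 12.4 in flower, within the range of 9.67 to 15.3 over the 8 samples. Silique, the other reproductive sample, exceeded flower 8.84-fold (95% interval 3.75 to 25.4, exact, counting error only) for Bra009055, 36.8-fold (9.75 to 310.4) for Bra028599 and 38.0-fold (10.1 to 320.3) for Bra006051. For Bra022771 the ratio was 1.21 with an interval of 0.0874 to 16.6, from 2 fragments in each sample. Flower and silique have 1 sample each, so these ratios compare 2 libraries and have no replicate check.

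The homologues of FRI did not share this. Silique over flower was 1.13 (0.888 to 1.43) for Bra029192 and 0.946 (0.702 to 1.27) for Bra035723, so both intervals contain 1. The summed FPKM of the FLC homologues was 0.115 times that of the FRI homologues in flower and 1.72 to 3.93 times in the other 7 samples.

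Bra029192 lies on Scaffold000064 from 1359947 to 1362144, a span of 2198 bases. Its level was 8.87 FPKM (7.85 to 9.89) and 6.89 (5.79 to 7.99) in root, 6.65 (5.77 to 7.53) and 5.06 (4.12 to 6.01) in leaf and 7.03 (5.78 to 8.28) in stem. It was 6.59 (5.52 to 7.66) in flower, 7.41 (6.16 to 8.66) in silique and 10.5 (9.09 to 11.9) in callus. Ordered by level, neighbouring samples overlapped throughout, from callus at the top to leaf 2 at the bottom. The callus interval still lay above those of root 2, both leaf samples, stem, flower and silique, and overlapped only that of root 1. The root 1 interval lay above those of both leaf samples and flower, and the silique interval above that of leaf 2. The means were 7.88 ± 1.40 FPKM (SD, n = 2) in root and 5.86 ± 1.12 (SD, n = 2) in leaf.

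Bra035723, on Scaffold000108 from 555148 to 556670, spans 1523 bases. It was at 8.20 FPKM (6.96 to 9.44) and 6.99 (5.59 to 8.38) in root, 6.40 (5.31 to 7.49) and 5.43 (4.19 to 6.67) in leaf and 8.07 (6.38 to 9.76) in stem. In flower it had 7.48 (6.03 to 8.92), in silique 7.08 (5.53 to 8.62) and in callus 9.04 (7.40 to 10.7). Callus was again the highest sample and leaf 2 the lowest, with overlap between all neighbours in the order. The intervals of callus and root 1 lay above that of leaf 2. Root had a mean of 7.59 ± 0.859 FPKM (SD, n = 2) and leaf of 5.92 ± 0.684 (SD, n = 2).

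The highest tissue exceeded the lowest 1.79-fold for Bra029192 and 1.53-fold for Bra035723. A range within 2-fold was seen for 6.45% of the genes expressed in all 8 samples. With each sample scaled to an equal upper quartile of FPKM, chosen for this range after the data were seen, the ratio was 2.22 for Bra029192, which leaves that class, and 1.67 for Bra035723, with stem as the lowest tissue of both (10.3% of genes within 2-fold). With the deposited FPKM the ratio was 15.9 for Bra009055, 125 for Bra028599, with a flower value of 2 fragments, and 12.7 for Bra022771. The tissue specificity index T runs from 0 for an even level over the 6 tissues to 1 for a gene seen in a single tissue, and its median was 0.679 over the 33082 genes expressed in at least 1 sample. T was 0.201 for Bra035723 and 0.337 for Bra029192, and 0.683% and 7.14% of those genes had a lower T. It was 0.377 for Bra009055, 0.578 for Bra028599, 0.832 for Bra022771 and 0.873 for Bra006051, with 10.7%, 35.9%, 71.3% and 77.1% of the genes lower. Bra009055 moved to 19.4% with upper quartile scaling, which sets that quartile of FPKM equal in all samples, and to 23.2% without callus, an alternative chosen after the data were seen. In these 2 settings Bra028599 moved to 49.3% and 50.8%, close to the median gene. Bra022771 moved to 61.9% and 79.6%, and Bra006051 to 78.8% and 60.7%. With the same scaling T was 0.356 for Bra035723 and 0.465 for Bra029192, and 10.8% and 23.3% of the genes were lower. Without callus it was 0.131 and 0.147.

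**Figure D2:**
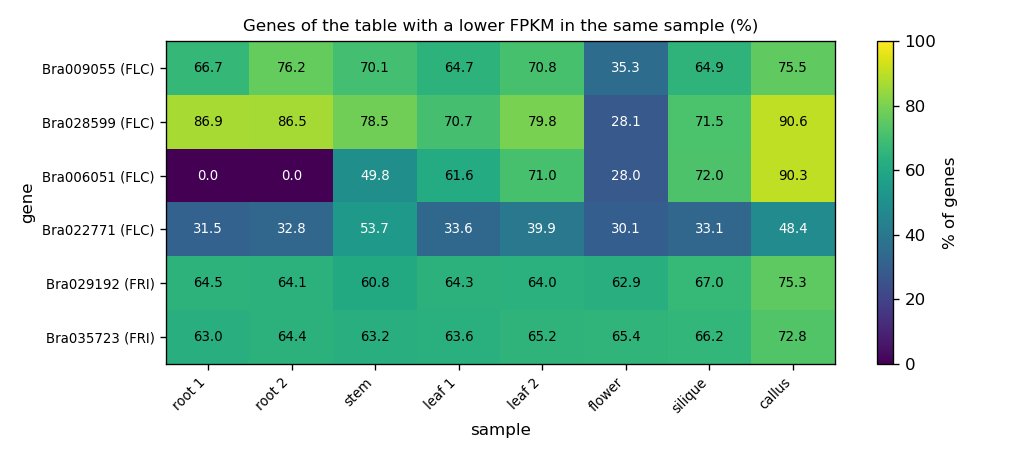
Share of the 38200 genes with a lower FPKM than each homologue (colour and printed number, in %), by gene (rows) and sample (columns). Bra028599 stands above 90.6% of genes in callus and 28.1% in flower, and the FRI homologues stand between 60.8% and 75.3% in every sample; genes listed at 0 have no gene below them.

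Within a sample FPKM was set side by side between copies, since it is per length. This takes the gene models as right and reads as assigned to the right copy, which was not tested. Bra028599 held 75.1% and 65.3% of the summed FLC FPKM in the root samples and 48.6% in stem. It held 42.7% and 45.4% in leaf, and its interval there overlapped that of Bra009055 in leaf 1 and not in leaf 2. In silique Bra006051 (37.2%) and Bra028599 (36.2%) were alike within their intervals, and so they were in callus, at 41.3% and 42.5%. The FPKM interval of Bra009055 overlapped both of theirs in silique as well, and lay below both in callus. The share of Bra006051 was thus 0 in root, 8.98% in stem, 25.5% and 26.2% in leaf and highest in callus. As shares of fragments, its exact 95% intervals in callus (37.3% to 45.6%) and silique (29.8% to 44.8%) overlapped, so these 2 samples were not separated. Bra009055 held 13.8% in callus and between 23.4% and 33.4% in the other samples except flower. Bra022771 held 11.8% in stem and at most 2.48% in the other samples outside flower. In flower the shares rest on 12 fragments and have exact 95% intervals of 21.1% to 78.9% for Bra009055 and 2.09% to 48.4% for each of the others, as shares of fragments.

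The 2 FRI homologues held nearly equal shares. That of Bra029192 ran from 46.6% in stem to 53.7% in callus. Bra029192 was the higher copy in root 1, leaf 1, silique and callus and the lower one in root 2, leaf 2, stem and flower, and in each of the 8 samples the intervals of both copies overlapped. Replicates of root and leaf thus disagreed on which copy was higher.

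**Figure D3:**
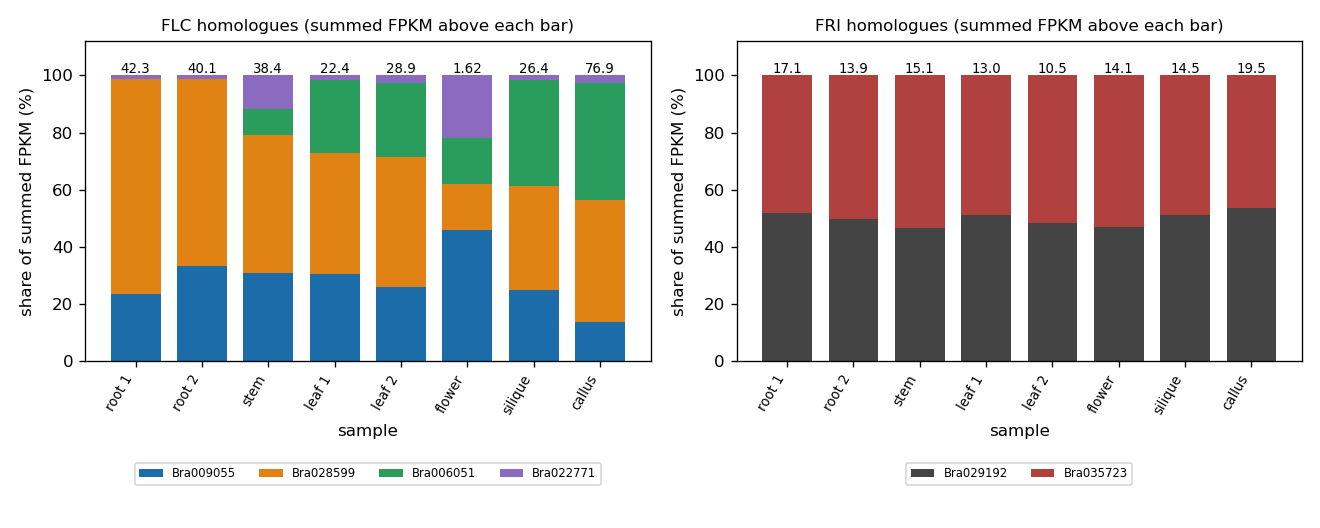
Share of each copy (stacked bars, % of the summed FPKM of its family, y axis from 0) in the 8 samples (x axis) for the FLC homologues (left) and the FRI homologues (right), with the summed FPKM above each bar. Bra006051 is missing from the root bars and reaches 41.3% in callus, while the FRI bars are split between 46.6% and 53.7%.

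Leaf and root are the only tissues with replicates and were compared over all genes. Of the 4 homologues above 1 FPKM in both tissues, 1 was called at an adjusted p under 0.05 with limma, as higher in root. Of the 25725 genes tested, 34.6% were called higher in root and 16.3% higher in leaf, or 51.0% in all. That set includes genes that passed the filter through 1 tissue only. In a fit of the 19426 genes with at least 1 FPKM in all 4 samples, 7670 were called, 5319 higher in root and 2351 in leaf. Bra022771 was below 1 FPKM in all 4 samples and was not tested. The median tested gene was lower in leaf than in root by 0.47 on the log2(FPKM + 1) scale, and by 0.18 with upper quartile scaling. The calls were 32.1% higher in leaf with the deposited FPKM and 42.6% with that scaling, under which 22.5% of all genes tested were higher in leaf. The differences of these 4 homologues are therefore also given relative to the median gene.

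Bra028599 was higher in root, where 31.8 and 26.2 FPKM stood against 9.57 and 13.1 in leaf. The difference of leaf from root was -1.29 ± 0.27 (SE) on the log2(FPKM + 1) scale (limma, adjusted p = 0.00703), which is -0.82 relative to the median gene. With upper quartile scaling it was -0.97 (adjusted p = 0.0386). This call did not hold in 3 of the 4 fits with 1 sample left out, with an adjusted p of 0.0586 without leaf 1, 0.120 without root 1 and 0.0756 without root 2, against 0.0325 without leaf 2.

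Bra006051, at 5.71 and 7.58 FPKM in leaf, is listed at 0 in both root samples. It passed the filter on low values only through leaf and had to differ, so its test is not used, and no fold change is given against a level listed at 0. Its leaf levels lay above both root levels, while those of Bra028599 lay below.

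Bra009055, at 9.91 and 13.4 FPKM in root and 6.79 and 7.50 in leaf, had a difference of -0.62 ± 0.27 (SE), which did not pass the threshold (limma, adjusted p = 0.0951). It was -0.15 relative to the median gene and -0.32 with upper quartile scaling. The FRI homologues had -0.37 ± 0.28 (SE) for Bra029192 and -0.31 ± 0.26 (SE) for Bra035723 (limma, adjusted p = 0.295 and 0.343), or 0.10 and 0.16 relative to the median gene. With upper quartile scaling these were -0.08 and -0.02. For each of these 4 homologues both root samples lay above both leaf samples, which was so for 53.2% of all genes tested, with the reverse order for 22.7%. Those shares include genes that passed the filter through 1 tissue only, which these 4 homologues did not.

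**Figure D4:**
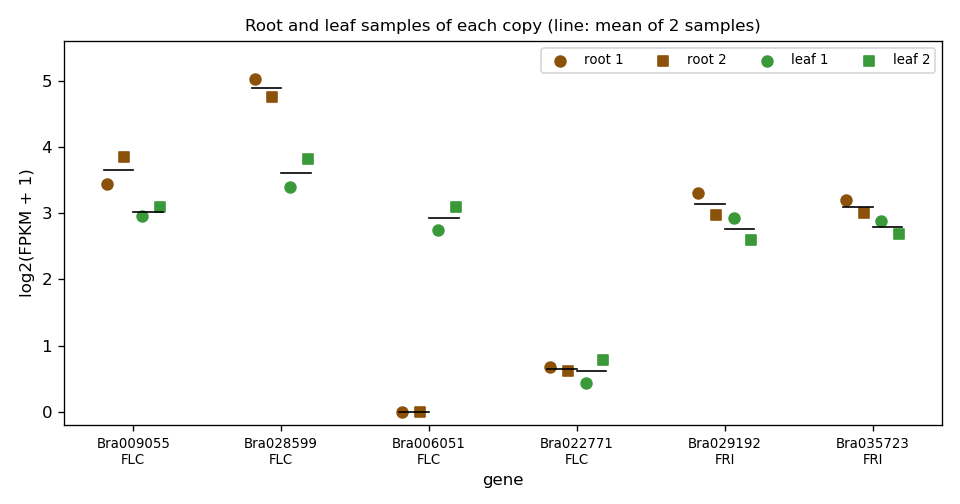
Level of each homologue on the log2(FPKM + 1) scale (y axis) in the 2 root samples (brown) and the 2 leaf samples (green), circles for sample 1 and squares for sample 2, with a line at the mean of each tissue. Root is above leaf for Bra009055, Bra028599 and both FRI homologues, and at 0 for Bra006051. Leaf is below root by 0.37 and 0.31 for the FRI homologues, which were not called, against 0.47 for the median tested gene.

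Where a homologue was expressed in both samples of a tissue, their intervals overlapped, for 4 genes in root (60.4% of all genes expressed in both root samples) and 5 in leaf (58.2%). The levels of Bra022771 and the zeros of Bra006051 in root are too low for such a comparison. Over all genes expressed in both samples, the median log2 ratio of sample 2 to sample 1 was -0.29 in root and -0.35 in leaf. The FRI homologues ran with this, at -0.36 and -0.23 in root and -0.39 and -0.24 in leaf for Bra029192 and Bra035723. The FLC homologues did not in leaf: Bra009055 was higher in sample 2 by 0.14, Bra028599 by 0.46 and Bra006051 by 0.41, where 21.1% of all genes were higher in sample 2. In root Bra009055 was higher in sample 2 by 0.43 and Bra028599 had a log2 ratio of -0.28.

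Profiles over the 8 samples were compared by Pearson's r of log2(FPKM + 1), as a description, since the points share libraries and 2 tissues appear in replicate. Bra009055 and Bra028599 had an r of 0.968. Among the 30941 genes that reached 1 FPKM, Bra028599 was in place 2 by likeness to Bra009055, and Bra009055 in place 3 by likeness to Bra028599. Flower weighs on this value, and without it r was 0.818 over 7 samples. The other 5 pairs of FLC homologues had r between 0.220 and 0.437, and single libraries weigh on these as well. Bra006051 and Bra028599 had 0.226 over all samples, 0.863 over the 6 samples without root, 0.00875 without callus and -0.304 without flower. Bra006051 and Bra009055 turned from 0.220 to -0.443 without flower. The FRI homologues had an r of 0.896 with each other, and 0.926 without flower. The 8 pairs of an FLC with a FRI homologue lay between 0.0132 and 0.479. Without callus Bra006051 had -0.460 with Bra029192 and -0.554 with Bra035723, so the sign of its r is not settled by these samples. Bra028599 had 0.644 and 0.691 with them without flower and 0.290 and 0.0535 without callus, so size is not settled either. The pairs of Bra009055, Bra028599 and Bra022771 with the FRI homologues stayed above 0 without flower, callus or root, down to 0.00368.

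**Figure D5:**
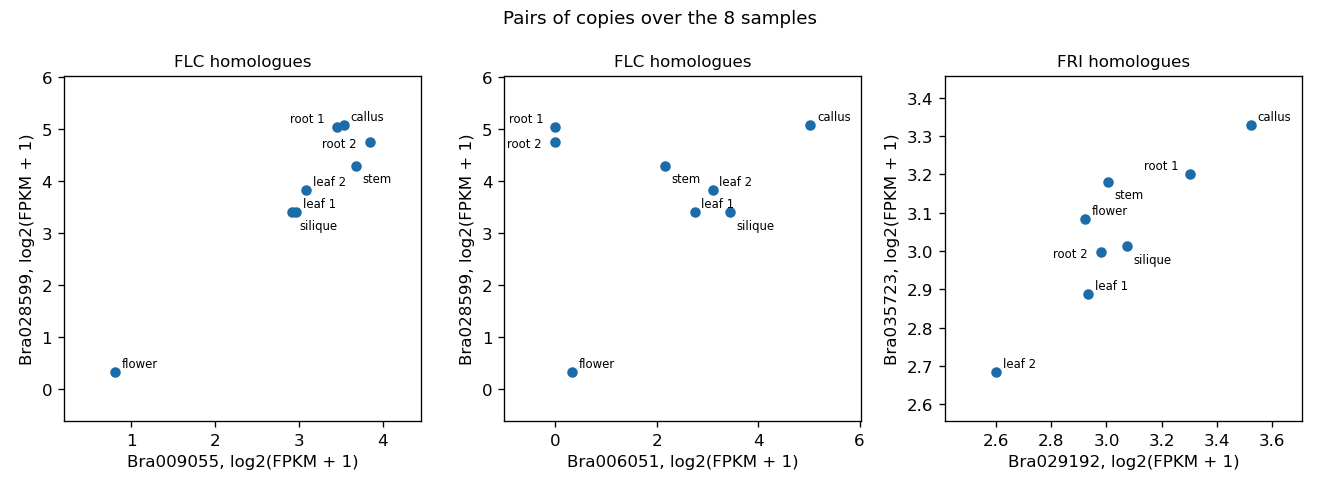
Log2(FPKM + 1) of a pair of copies in each of the 8 samples (points, labelled), for Bra009055 and Bra028599 (left), Bra006051 and Bra028599 (middle) and the FRI homologues Bra029192 and Bra035723 (right, on a narrower scale). The pair on the left has an r of 0.968, and in the middle the root samples lie at 0 on the x axis.

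By the rule for likeness, the genes nearest to each homologue were these. They were picked on the same samples, so the high and low levels they share with a homologue, here and below, follow from that choice. The nearest to Bra009055 was Bra028290 (r = 0.971), which is listed at 0 in flower and was at 63.2 and 55.2 FPKM in root. Bra035002 was the nearest to Bra028599 (r = 0.979) and in place 3 for Bra009055 (r = 0.961), with 389.9 and 370.4 FPKM in root and 3.77 in flower. Bra032845 was in place 2 for Bra028599 (r = 0.975), at 443 and 428 FPKM in root and 7.58 in flower. These 3 genes shared the low level in flower and the high level in root.

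The nearest to Bra006051 were Bra018611 (r = 0.951), Bra015685 (r = 0.949) and Bra037699 (r = 0.933). Bra018611 was at 263 FPKM in callus, 56.5 and 34.1 in leaf and 0.754 and 0.494 in root. It thus shared the high callus and the low root levels with Bra006051. Bra022771 was nearest to Bra036359 (r = 0.989), Bra026338 (r = 0.985) and Bra037704 (r = 0.979). Their highest sample was stem, with 2.41, 2.17 and 38.5 FPKM.

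The nearest to Bra029192 were Bra012470 (r = 0.973), Bra022136 (r = 0.971) and Bra006623 (r = 0.968). Bra004436, Bra020318 and Bra024396 (r = 0.984, 0.984 and 0.983) were the nearest to Bra035723. Each of these 6 genes was highest in callus and lowest in leaf 2, as were both FRI homologues.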

How the data were processed

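RNA-seq of 8 samples was analysed from a single table. The authors deposited FPKM per gene and sample with 95% bounds, made per their methods with TopHat and Cufflinks from trimmed, filtered and uniquely mapped reads. The submitters' processing notes name TopHat 1.0.13, and the table names no tool or build and gives scaffold positions. The methods name another TopHat version, so the table may come from another run. Whether reads shared between copies were left out of it is therefore not certain, and how alike the copies are was not tested. Columns were matched to samples by the key in the file header.

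To obtain fragment numbers, FPKM was divided by its distance to the upper bound, squared and multiplied by 4. A run on simulated data used the same form of interval, so it checked arithmetic and rounding only. That the deposited intervals have this form rests on the whole numbers that most of them gave. Leaf and root were compared with limma 3.58.1 (lmFit, eBayes with trend) on log2(FPKM + 1), over genes with at least 1 FPKM in 2 of the 4 samples, with Benjamini-Hochberg adjustment over all of them, in R 4.3.3. This scale understates the change of low genes. The other tissues have 1 sample and no test. T used the study's formula with means for root and leaf. Exact 95% intervals are Clopper-Pearson. Python 3.11.15 with pandas 2.3.3, scipy 1.17.1 and matplotlib 3.10.9 was used.

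Genes named besides the 6 homologues were the 3 most alike in profile and the nearest on each side. The members and lists were chosen with earlier results of these data known. A list of flowering pathway genes and of tissue markers was to be looked up by name. It was not summarised, because the reference table used here (assembly CAAS_Brap_v3.01) names 1 identifier of the table and none of the 6. Alternatives covered pseudocounts, filters, scaling, a replicate block, the detection rule, T, and leaving out each leaf and root sample.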

Additional observations from a re-analysis of the deposited data

How the results depend on the processing

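The limits of these values are few samples and low counts. Only leaf and root have replicates, and the 2 samples of each set the spread. Bra022771 rests on 49 fragments over the 8 samples, and the flower values of the FLC homologues on 12, so levels below about 1 FPKM are not ordered at this depth.

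Genes called between leaf and root numbered 13109, with 4204 higher in leaf and 8905 in root. Requiring 1 FPKM in all 4 samples gave 7670 calls among 19426 genes tested, 2351 higher in leaf and 5319 in root, and left Bra006051 untested. Leaving out 1 sample at a time gave 7215 to 9502 calls, 2721 to 3494 in leaf and 4387 to 6313 in root. With the replicate number as a block there were 19827 calls, 14109 of them higher in root, and Bra009055 (-0.62, adjusted p = 0.00236, limma) and Bra029192 (-0.37, adjusted p = 0.0345) passed. Same-numbered samples deviated together (r = 0.640 over 25725 genes), but there are 2 pairs, and although the 2 samples of a tissue came from different batches of plants, no source used here says that a number marks the same batch in both tissues. A pairing is therefore not established. The difference of Bra028599 ran from -1.50 to -1.08 with 1 sample left out, where the lone sample of a tissue is assumed to vary like the pair of the other. Over the 4 homologues above 1 FPKM in both tissues, 39 of 44 values under the alternatives kept their direction and their side of the threshold, 3 of Bra028599 fell short of it, and 2 passed it, both with the block.

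The index T changed with its definition. From log2(FPKM + 1) it was 0.242 for Bra009055, 0.347 for Bra028599, 0.648 for Bra006051, 0.695 for Bra022771, 0.152 for Bra029192 and 0.0882 for Bra035723. With upper quartile scaling it was, in the same order of genes, 0.433, 0.671, 0.889, 0.767, 0.465 and 0.356. Without callus, chosen after the data were seen, it was 0.446, 0.656, 0.737, 0.896, 0.147 and 0.131. Over 8 samples it was 0.424 for Bra009055, 0.522 for Bra028599 and 0.845 for Bra022771. With 1 sample left out it ran from 0.371 to 0.449 for Bra009055 and from 0.561 to 0.595 for Bra028599. The number of samples called expressed was 7 for Bra009055 and 2 for Bra022771 at 1 FPKM or more. With any FPKM above 0 it was 8 for Bra028599, 6 for Bra006051 and 8 for Bra022771. As shares of fragments in place of FPKM, the median share was 1.49% for Bra022771, 61.9% for Bra029192 and 38.1% for Bra035723, against 2.05%, 50.3% and 49.7% of FPKM.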

Other observations

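The nearest genes of the table on either side were read for each homologue, as values only. Bra006050, which ends 616 bases before Bra006051, is listed at 0 in 7 samples and was at 0.0831 FPKM in callus. Bra006052, which starts 822 bases after it, was at 32.6 and 35.2 FPKM in the root samples, where Bra006051 is listed at 0, and at 18.2 in callus. Beside Bra028599, Bra028600 lies 2014 bases away and was at 47.5 and 28.6 FPKM in root, 1.56 and 0.471 in leaf and 3.16 in callus, and it is listed at 0 in flower. Bra028598, on the other side at 1989 bases, was below 1 FPKM in root, leaf and flower and at 11.2 in callus.

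Bra009053 lies 10527 bases before Bra009055 and was at 14.2 FPKM in callus, 8.24 and 3.78 in leaf and 0.475 and 0.215 in root. Bra009056, 2971 bases after Bra009055, stayed between 0 and 1.45 FPKM. Bra022772, 3658 bases from Bra022771, was at 242 and 265 FPKM in root and 3.62 in flower, and Bra022770 at 10164 bases ran from 0.239 in flower to 9.39 in stem. Bra029191 ends 54 bases before Bra029192 and stayed at or below 0.559 FPKM, and Bra029193 at 1130 bases was highest in flower at 147. Bra035724 at 677 bases from Bra035723 was at most 0.586 FPKM, and Bra035722 at 5271 bases ran from 6.17 to 20.2. The strand used in counting is not given in the sources used here, so reads that run from a gene into its neighbour cannot be told apart from its own.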
